A study of Mus musculus with 11 samples.

Results

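In mouse lung, 10 genes of matrix breakdown and its control were followed: the matrix metalloproteinases Mmp2, Mmp8, Mmp9, Mmp12, Mmp13, Mmp14 and Mmp19 and the tissue inhibitors of metalloproteinases Timp1, Timp2 and Timp3. They were found by the gene name attached to each probe, which gave 14 of the 41174 probes on the array and 10 of the 21874 genes tested, and all 14 probes were kept. The study measured total RNA of lung on 11 one-colour arrays. Foxa3 knockouts were set beside littermate controls (called wild type), and each genotype was given either saline or OVA, which stands for ovalbumin, a protein of egg white used as an allergen. After saline there were 3 wild-type and 2 knockout arrays, and after OVA there were 3 of each genotype. The labels give no strain, age, knockout allele or challenge schedule. They also do not say that each array is 1 animal, so p-values measure only the spread between these samples.

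Matrix metalloproteinases are zinc enzymes that cut collagen, elastin and other matrix proteins, and also chemokines and cytokines. Most are secreted as inactive proenzymes that other proteinases open, and the TIMP proteins block the active enzyme by filling its active site. In the lung, Mmp12 is known as the elastase of macrophages, Mmp8 and Mmp9 are stored in neutrophil granules, and Mmp2, Mmp14 and the TIMPs are largely made by stromal cells. Foxa3 is a forkhead transcription factor, and the labels frame it in allergic airway disease.

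Signals are log2 of the background-subtracted intensity minus the 75th percentile of the same array, so 0 is the 75th percentile of that array and 1 unit is a 2-fold difference. A probe's level depends on its letters and cannot be compared with the level of another probe. Between 71.2% and 78.9% of probes were well above background on each array. Foxa3 was well above background on 6 of 6 wild-type arrays and 0 of 5 knockout arrays, and the labels do not say which part of the gene was removed. The 7 lung epithelium markers (surfactant, club cell and alveolar type I genes) were well above background on all arrays. The arrays sat on 3 slides: slides 1 and 2 each held 1 array of every group, and slide 3 lacked a knockout saline array. All 14 member probes were well above background on 11 of 11 arrays and none was saturated.

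Of the 14 probes, 6 are printed here, since they carry the largest changes or let a second measurement of the same transcript be checked. Each is 60 bases, written 5′ to 3′, in the letters of the array design, with no part in capitals because the whole probe is the measured stretch.

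Mmp12: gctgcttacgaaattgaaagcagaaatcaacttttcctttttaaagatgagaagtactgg

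Timp1, probe A_52_P87713: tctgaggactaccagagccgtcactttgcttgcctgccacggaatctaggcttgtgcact

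Timp1, probe A_51_P512384: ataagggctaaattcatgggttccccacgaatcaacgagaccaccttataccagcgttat

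Timp1, probe A_51_P512379: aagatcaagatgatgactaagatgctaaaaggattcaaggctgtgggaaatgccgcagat

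Mmp14, probe A_52_P304128: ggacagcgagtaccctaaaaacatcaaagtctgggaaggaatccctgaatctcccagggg

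Mmp9, probe A_51_P401797: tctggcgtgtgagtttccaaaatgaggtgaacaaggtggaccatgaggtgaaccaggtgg

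In the coordinates of the file (mouse build mm7), the Mmp12 probe lies at chr9:7352125-7352640, a span of 516 genomic bases for 60 letters. The Timp1 probe A_51_P512384 lies at chrX:19305929-19305988, and A_51_P512379 begins at the next base and runs to 19306238, a span of 250 bases. The third Timp1 probe lies at chrX:19307699-19307758, the printed Mmp14 probe at chr14:49307013-49307072 and the printed Mmp9 probe at chr2:164695457-164695516. The other probes lie at chr9:7280046-7280105 (Mmp13), chr9:7566361-7566420 (Mmp8), chr8:91446191-91446250 (Mmp2), chr10:128300933-128300992 (Mmp19), chr11:118410877-118410936 (Timp2) and chr10:85907162-85907221 (Timp3). The brighter Mmp14 probe lies at chr14:49308207-49308266 and the second Mmp9 probe at chr2:164695774-164695833. A match longer than the probe means that its letters are split in the genome, and 2 of the 14 probes are of this kind. Exon and UTR annotation of mm7 was not used here.

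OVA challenge of wild-type lung was followed by large rises of Timp1 and of the enzymes Mmp12 and Mmp13, smaller rises of Mmp14 and Mmp19, and modest falls of Timp2 and Timp3. Timp1 rose 20.1-fold, Mmp12 14.1-fold and Mmp13 9.12-fold, and Timp2 and Timp3 fell 1.51-fold and 1.64-fold. By the limma test with adjusted p under 0.05, 5 of the 10 genes rose, 2 fell and 3 (Mmp2, Mmp8 and Mmp9) did not pass, where 18.8% of all genes passed (10.9% higher and 7.9% lower). The 7 that passed are also the 7 whose saline and OVA arrays did not overlap, and 42.7% of all genes separated in this way. The median log2 difference over the 10 genes was 0.85, against 0.02 over all genes. The 10 genes, and the gene lists below, were chosen with earlier results of these data known. In both genotypes their counts and medians beside those of all genes are therefore a description, not an independent comparison. None of the 10 passed with the planned normexp background correction or without the 4 arrays of slide 1, though no called direction turned in either. The count was 2 without wild-type saline 2 or wild-type OVA 3, 3 without wild-type OVA 2 and 4 without wild-type saline 3.

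**Figure D1:**
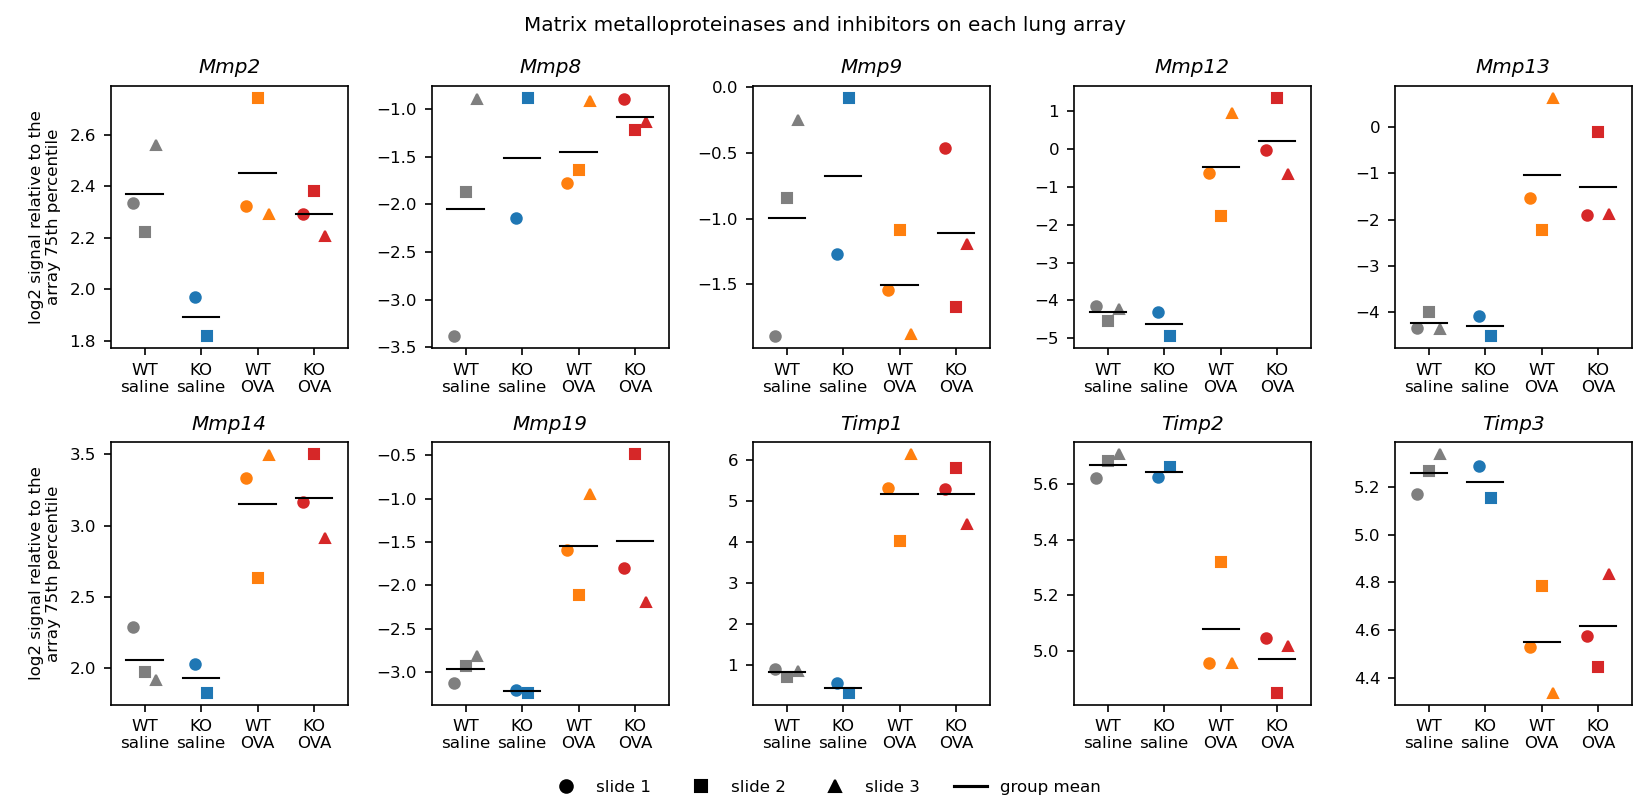
Log2 signal of each gene relative to the 75th percentile of its array (vertical axis, a separate scale for each gene) in wild-type (WT) and Foxa3 knockout (KO) lung after saline or OVA. Each point is 1 array, its shape gives the slide and the line is the group mean: Timp1, Mmp12 and Mmp13 separate saline from OVA in both genotypes, while Mmp8 and Mmp9 spread widely inside groups.

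Mmp12, the macrophage elastase, had the largest rise among the 7 enzymes in both genotypes. Its signal was -4.16, -4.53 and -4.23 on wild-type saline arrays 1 to 3 and -1.77, 0.94 and -0.63 on wild-type OVA arrays 1 to 3. The knockout arrays read -4.95 and -4.31 after saline and -0.03, -0.65 and 1.34 after OVA. Every OVA array lay above every saline array, and the OVA arrays were spread over 3.11 log2 units where the 5 saline arrays spanned 0.79. The difference was 3.82 ± 0.68 (SE) in wild type (adjusted p 0.00941, slides 3.52, 2.77 and 5.17) and 4.85 ± 0.76 in knockout, 28.8-fold (adjusted p 0.00847, slides 4.28 and 6.29). With slide as a block the adjusted p was 0.0255 and 0.0326. The knockout call was lost without knockout saline 1 (4.53, adjusted p 0.0914), whereas the wild-type call remained without any 1 array. In the wild type the rise was 2.46 with planned normexp, 3.05 with normexp without spots of bright local background and 2.97 in the authors' deposited table of values, and it was 4.46 without wild-type OVA 1 and 3.11 without wild-type OVA 2. In knockout it was 3.63 with either normexp setting and 3.71 with the deposited table.

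The collagenases are Mmp13 and Mmp8, which cut fibrillar collagen across its triple helix. Mmp13 read -4.34, -4.00 and -4.36 on wild-type saline arrays and -2.23, 0.63 and -1.53 on wild-type OVA arrays. In knockout lung it read -4.52 and -4.07 after saline and -1.91, -1.88 and -0.10 after OVA. All OVA arrays were above all saline arrays, with wild-type OVA 2 and knockout OVA 3 the highest. The rise was 3.19 ± 0.71 in wild type (adjusted p 0.0206, slides 2.81, 1.77 and 4.99, slide block 0.0415). In knockout it was of similar size, 3.00 ± 0.80 or 7.99-fold, and missed the threshold (adjusted p 0.0527, slides 2.17 and 4.42, slide block 0.11). The wild-type call was lost without wild-type saline 1, 2 or 3 (adjusted p 0.0618, 0.0606 and 0.0578) or wild-type OVA 3 (0.0547). The wild-type rise was 3.78 without wild-type OVA 1, 2.35 without wild-type OVA 2, 2.13 with planned normexp, 2.54 with normexp without bright spots and 2.38 with the deposited table. The knockout value was 2.15 with either normexp setting, 2.20 with the deposited table and 2.40 without knockout OVA 3, and it passed without wild-type OVA 1 or 2 (0.0308 and 0.0153), which change only the shared spread, and without knockout OVA 2 (0.0458).

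Mmp8, the collagenase of neutrophils, showed no such separation. Its wild-type arrays read -3.38, -1.87 and -0.89 after saline and -1.64, -0.92 and -1.78 after OVA, and its knockout arrays -0.88 and -2.14 after saline and -0.89, -1.13 and -1.22 after OVA. Saline and OVA arrays overlapped in both genotypes, and the saline arrays alone covered 2.50 log2 units. The difference with OVA was 0.60 ± 0.58 in wild type (95% interval -0.71 to 1.91, adjusted p 0.494) and 0.43 ± 0.65 in knockout (-1.03 to 1.90, adjusted p 0.708).

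The gelatinases Mmp2 and Mmp9 degrade denatured collagen and basement membrane collagen. Mmp9 read -1.90, -0.84 and -0.25 on wild-type saline arrays and -1.09, -1.87 and -1.54 on wild-type OVA arrays. Knockout arrays read -0.08 and -1.27 after saline and -0.46, -1.20 and -1.67 after OVA. The groups overlapped, with differences of -0.51 ± 0.49 in wild type (95% interval -1.62 to 0.60, adjusted p 0.496) and -0.44 ± 0.55 in knockout (-1.68 to 0.80, adjusted p 0.641). A second Mmp9 probe, printed on each array in 10 spots, gave -0.65 and -0.61, neither called, and followed the first with r = 0.987 over the 11 arrays. With outlier spots dropped, its spots varied within an array by an SD of 0.015 to 0.10 log2 units. The lowest value, on wild-type OVA 1, came after 3 of the 10 spots were dropped. Between arrays of a group the SD on the same probe was 0.96 (wild-type saline), 0.82 (knockout saline), 0.37 (wild-type OVA) and 0.74 (knockout OVA).

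Mmp2, made by stromal cells without stimulation, was not called with OVA in either genotype. It read 2.33, 2.22 and 2.56 on wild-type saline arrays, 2.74, 2.29 and 2.32 on wild-type OVA arrays, 1.82 and 1.97 on knockout saline arrays and 2.29, 2.21 and 2.38 on knockout OVA arrays. Only the knockout groups did not overlap between challenges. The difference was 0.08 ± 0.15 in wild type (95% interval -0.25 to 0.41, adjusted p 0.732) and 0.40 ± 0.16 in knockout (0.03 to 0.77, adjusted p 0.137).

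Mmp14, the membrane-bound enzyme that activates the proenzyme of Mmp2, rose about 2-fold. It read 2.29, 1.97 and 1.91 on wild-type saline arrays and 2.63, 3.50 and 3.33 on wild-type OVA arrays, and 1.82 and 2.03 against 3.16, 2.91 and 3.50 in knockout. The groups did not overlap in either genotype. The rise was 1.1 ± 0.24 in wild type, 2.14-fold (adjusted p 0.0191, slides 1.05, 0.66 and 1.59, slide block 0.0374), and 1.27 ± 0.27 in knockout, 2.41-fold (adjusted p 0.0266, slides 1.14 and 1.68, slide block 0.0594). Its second probe, printed above, rose by 1.04 in wild type (adjusted p 0.0306 over 32944 probes) and 1.22 in knockout (0.0407), and the probes correlated at r = 0.951 over 11 arrays. The wild-type call was lost without wild-type saline 2 or 3 (adjusted p 0.0675 and 0.0588) or wild-type OVA 2 or 3 (0.072 and 0.0723). The knockout call was lost without knockout saline 1 or 2 (0.176 and 0.108) or knockout OVA 1 or 3 (0.0703 and 0.0885).

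Mmp19, a secreted enzyme that cuts basement membrane proteins, had the weakest call. It read -3.13, -2.93 and -2.82 on wild-type saline arrays and -2.11, -0.95 and -1.59 on wild-type OVA arrays, and -3.24 and -3.21 against -1.80, -2.19 and -0.49 in knockout. No OVA array overlapped a saline array. The rise was 1.41 ± 0.42 in wild type (2.66-fold, adjusted p 0.0481, slides 1.54, 0.82 and 1.88, slide block 0.0765), and 1.73 ± 0.47 in knockout did not pass (3.32-fold, adjusted p 0.0564, slides 1.41 and 2.75, slide block 0.11). The wild-type call was lost in 8 of 11 fits that left out 1 array: without any 1 of wild-type saline 1 to 3, knockout saline 1 or 2, wild-type OVA 2 or 3 or knockout OVA 1 (highest adjusted p 0.165). It was also lost in 8 of 13 alternative settings, among them quantile normalization (0.0505) and median scaling (0.0582). The knockout value passed without wild-type OVA 1 or 2 (0.0412 and 0.0472) or knockout OVA 2 (0.0266).

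Timp1, the inducible inhibitor, had the largest rise of the 10 genes in wild type and the second largest, after Mmp12, in knockout. It read 0.92, 0.70 and 0.86 on wild-type saline arrays and 4.03, 6.13 and 5.30 on wild-type OVA arrays. Knockout arrays read 0.33 and 0.56 after saline and 5.27, 4.43 and 5.80 after OVA. The lowest OVA array was far above the highest saline array. The rise was 4.33 ± 0.50 in wild type (adjusted p 0.00208, slides 4.39, 3.33 and 5.27, slide block 0.0086) and 4.72 ± 0.56 in knockout, 26.4-fold (adjusted p 0.00383, slides 4.72 and 5.46, slide block 0.0164). Its 3 probes, all printed above, gave 4.33 to 4.39 in wild type and 4.72 to 4.78 in knockout, and each pair of probes correlated at r = 0.999 or higher over 11 arrays. The knockout call was lost without knockout saline 1 (4.61, adjusted p 0.0516).

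Timp2 and Timp3, the inhibitors made in resting lung, went the other way. Timp2, which with Mmp14 also helps to activate the proenzyme of Mmp2, read 5.62, 5.68 and 5.71 on wild-type saline arrays and 5.32, 4.96 and 4.96 on wild-type OVA arrays, and 5.66 and 5.63 against 5.05, 5.02 and 4.85 in knockout. Saline arrays were tightly grouped (0.09 log2 units over 5 arrays) and all lay above the OVA arrays. Timp2 fell by 0.59 on the log2 scale in wild type (SE 0.12, adjusted p 0.0142, slides -0.66, -0.36 and -0.75, slide block 0.034) and by 0.67 in knockout (SE 0.13, adjusted p 0.0201, slides -0.58 and -0.81, slide block 0.0581). The wild-type call was lost without wild-type saline 2 (adjusted p 0.0545) or wild-type OVA 2 or 3 (0.0574 and 0.0603). The knockout call was lost without knockout saline 1 or 2 (0.145 and 0.108) or knockout OVA 3 (0.0709).

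Timp3, which binds to the matrix itself, read 5.17, 5.27 and 5.34 on wild-type saline arrays and 4.78, 4.34 and 4.53 on wild-type OVA arrays, and 5.16 and 5.29 against 4.58, 4.84 and 4.44 in knockout. No OVA array reached the saline range. It fell by 0.71 on the log2 scale in wild type (SE 0.14, adjusted p 0.0149, slides -0.64, -0.48 and -1.0, slide block 0.0359). The knockout difference of -0.61 (SE 0.16, adjusted p 0.0512, slides -0.71 and -0.71, slide block 0.102) did not pass. The wild-type call was lost without wild-type saline 2 (0.0548) or wild-type OVA 2 or 3 (0.056 and 0.0568). The knockout value passed without wild-type OVA 1 or 2 (0.029 and 0.04) or knockout OVA 2 (0.0269). In bulk lung RNA, fewer cells of a type and less RNA per cell cannot be told apart.

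In Foxa3 knockout lung, OVA thus raised Timp1, Mmp12 and Mmp14 and lowered Timp2. Of the 10 genes, 3 rose, 1 fell and 6 did not pass, where 8.23% of all genes passed (6.45% higher and 1.78% lower). The groups did not overlap for 8 of the 10, where 48.9% of all genes did not overlap. The median log2 difference was 0.85 against -0.01 over all genes. The count was 2 with slide as a block, with Timp1 and Mmp12 passing, and 0 without slide 1 or without knockout saline 1. It was 2 without knockout saline 2 or knockout OVA 3, and 7 without wild-type OVA 1, wild-type OVA 2 or knockout OVA 2.

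**Figure D2:**
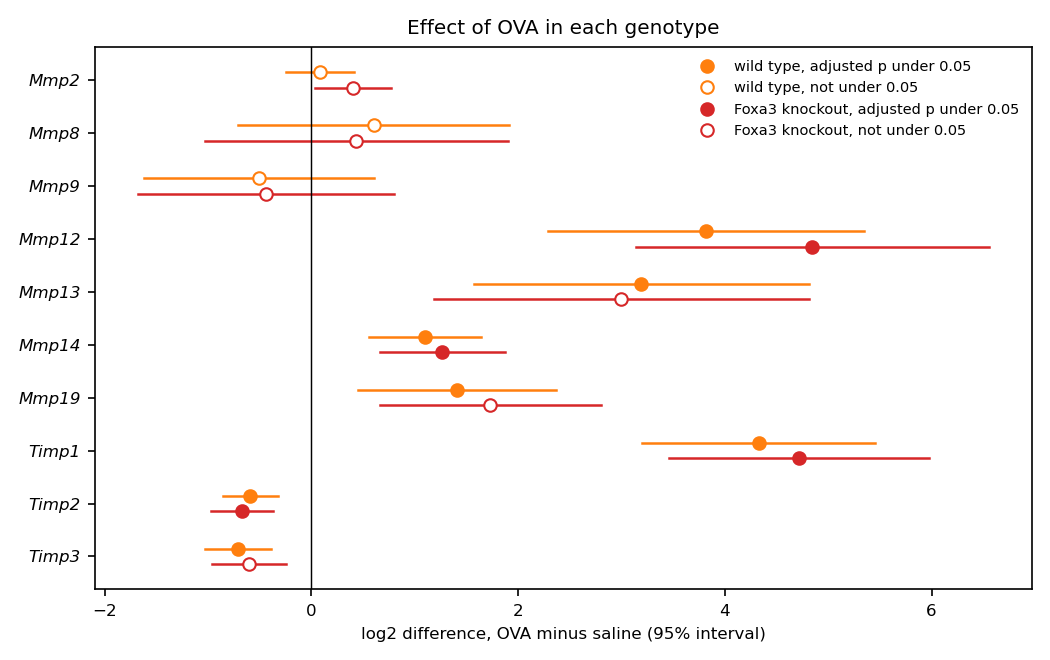
Log2 difference of each gene between OVA and saline arrays (horizontal axis) in wild-type and Foxa3 knockout lung, with limma's 95% interval; filled points passed at adjusted p under 0.05. Wild-type and knockout intervals overlap for all 10 genes, from Timp3 at -0.71 and -0.61 to Timp1 at 4.33 and 4.72.

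The genotype comparison asks whether these genes depend on Foxa3. After OVA none of the 10 passed (0 with unadjusted p under 0.05, adjusted p 1 for each), where 0.21% of all genes passed, and wild-type and knockout arrays overlapped for all 10, where 8.22% of all genes did not overlap. The knockout minus wild-type difference was 0.71 ± 0.68 for Mmp12 (95% interval -0.82 to 2.24), 0.01 ± 0.50 for Timp1 (-1.12 to 1.14), -0.25 ± 0.71 for Mmp13 (-1.87 to 1.36) and 0.04 ± 0.24 for Mmp14 (-0.50 to 0.58). These intervals leave room for differences of over 2-fold in either direction for Timp1 and Mmp13. The difference of the OVA effects was not called for any of the 10 either (0 with unadjusted p under 0.05, 0.00457% of all genes passed), at 1.03 ± 1.01 for Mmp12 and 0.39 ± 0.75 for Timp1.

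Between slides the genotype difference after OVA changed sign for 9 of the 10 genes, and it was negative on all 3 slides for Mmp2 (-0.03, -0.36 and -0.08). For Mmp12 it was 0.60 on slide 1, 3.11 on slide 2 and -1.59 on slide 3. For Timp1 it was -0.03, 1.77 and -1.71, and for Mmp13 it was -0.37, 2.13 and -2.51. Slide 2 pairs wild-type OVA 1 with knockout OVA 3, and slide 3 pairs wild-type OVA 2 with knockout OVA 2. Wild-type OVA 1 was the lowest OVA array for Mmp12, Mmp13, Mmp14 and Timp1, and wild-type OVA 2 or knockout OVA 3 was the highest for these 4 and for Mmp19. Timp2 was highest in wild-type OVA 1 and lowest in knockout OVA 3. Marker lists also ranked the OVA arrays. Wild-type OVA 1 was lowest for the eosinophil list (mean log2 signal -1.49) and the smooth muscle list (3.47) and highest for the endothelial (3.09), fibroblast (2.93) and lung epithelium (5.91) lists. Wild-type OVA 2 was highest for the eosinophil list (-0.18) and lowest for the endothelial (2.64), lung epithelium (5.38) and neutrophil (-0.40) lists. The macrophage list was lowest in knockout OVA 1 (3.17) and highest in knockout OVA 3 (3.71). Spots marked as outliers numbered 183 on wild-type OVA 1 and 140 on knockout OVA 3, against 48 to 79 on the other arrays. The part of cell content and of these spots in the ranks of the 10 genes was not tested.

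**Figure D3:**
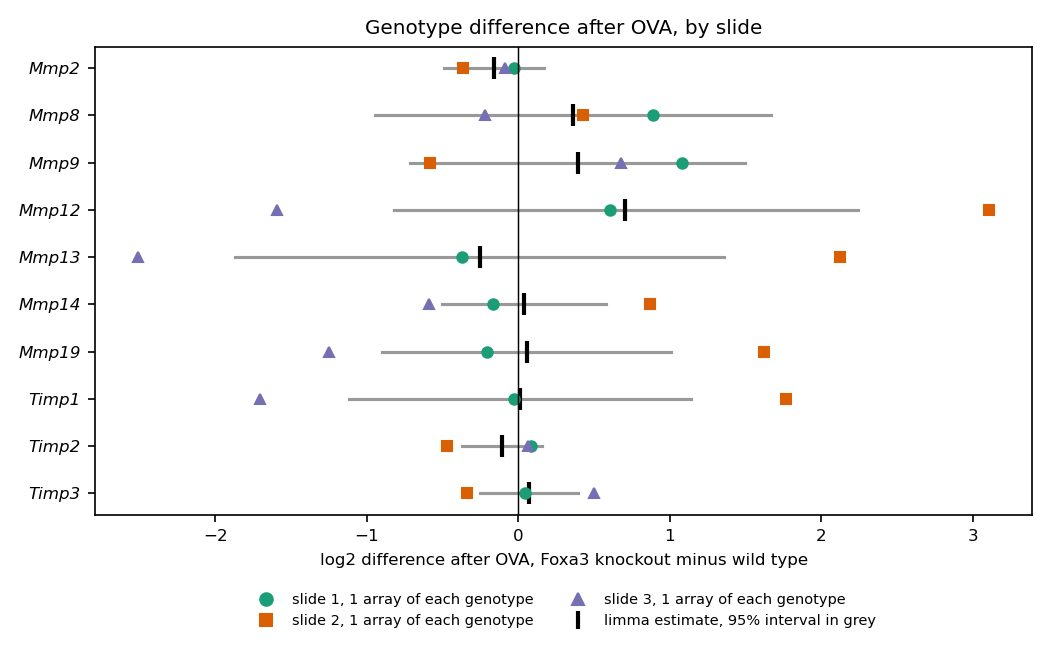
Log2 difference after OVA between Foxa3 knockout and wild type (horizontal axis) for each gene, on each slide (coloured points, 1 array of each genotype) and as estimated by limma (black bar, 95% interval in grey). For Mmp12, Mmp13, Mmp14, Mmp19 and Timp1 the slide 2 and slide 3 points lie on opposite sides of 0.

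After saline, with no allergen, none of the 10 passed between genotypes (adjusted p 1 for each), where 0.096% of all genes passed. Mmp2 was the 1 gene with unadjusted p under 0.05: it was 0.48 ± 0.16 log2 units lower in knockout, 1.39-fold, with limma p 0.0164 before adjustment (slides -0.36 and -0.40). Its knockout saline arrays lay below all wild-type saline arrays. The groups also did not overlap for Timp1 (-0.38 ± 0.56) and Mmp19 (-0.26 ± 0.47), so 3 of 10 were without overlap in a comparison with 2 knockout arrays, where 21.5% of all genes were.

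Mmp8 and Mmp9 are proteins of neutrophil granules, and their signals were set beside the mean of 9 other neutrophil markers. This pair was chosen after their spread was seen. The neutrophil list read -1.35, -0.76 and 0.31 on wild-type saline arrays, -0.15 and -0.48 on knockout saline arrays, -0.02, -0.40 and -0.34 on wild-type OVA arrays and 0.83, -0.31 and -0.31 on knockout OVA arrays. The list too spread widely inside groups. Of its 9 members, 1 (Ltf, an iron-binding granule protein) passed with OVA in wild type, where 18.8% of all genes passed. Over the 11 arrays Mmp8 followed the list with Pearson r = 0.781 (permutation p 0.00456, adjusted over 2 relations 0.00912) and Spearman rho = 0.782 (permutation p 0.00694, adjusted 0.0139). Mmp9 followed it with r = 0.636 (permutation p 0.032, adjusted 0.032) and rho = 0.645 (permutation p 0.0358, adjusted 0.0358). Wild-type saline 1 and knockout OVA 1 were the lowest and highest arrays of the list. Without them r was 0.546 for Mmp8 (permutation p 0.126) and 0.468 for Mmp9 (permutation p 0.217), over a narrower range of the list. With all arrays kept, r within saline was 0.932 for Mmp8 and 0.878 for Mmp9. Within the 6 OVA arrays it was 0.343 and 0.908. With slide means removed r was 0.88 for Mmp8 and 0.661 for Mmp9.

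**Figure D4:**
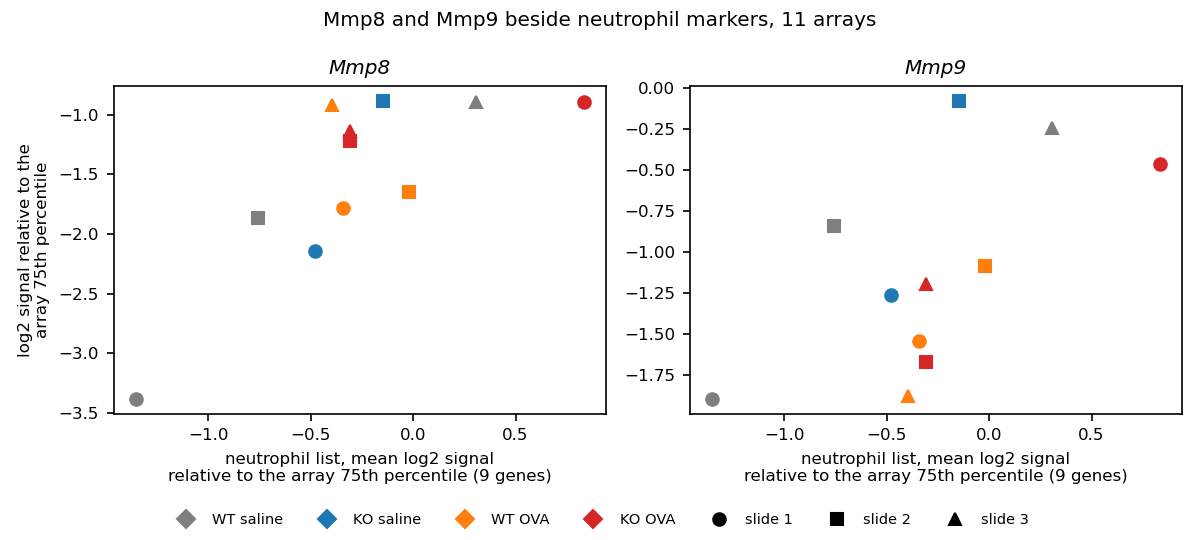
Signal of Mmp8 and Mmp9 (vertical axis, log2 relative to the array's 75th percentile) against the mean of 9 neutrophil markers on the same scale (horizontal axis), 1 point per array, coloured by group and shaped by slide. Wild-type saline 1 is the lowest point on both axes for Mmp8, at -1.35 and -3.38, and saline and OVA arrays are mixed along the axis.

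Macrophage markers rose beside Mmp12. Of 10 macrophage genes, 8 rose and 0 fell in wild type (median 1.43) and 6 rose and 0 fell in knockout (median 1.40). Among all genes 18.8% passed in wild type (10.9% higher) and 8.23% in knockout (6.45% higher). Complement C1qb rose by 2.74 and 2.71 and the Fc receptor Fcgr1 by 3.09 and 1.93. Marco (-0.52 and -0.46) and Lyz2 (0.40 and -0.20) were not called in either genotype. The mean of the list ran from 1.82 to 2.08 on wild-type saline arrays, 1.99 to 2.00 on knockout saline arrays, 3.25 to 3.71 on wild-type OVA arrays and 3.17 to 3.71 on knockout OVA arrays, and all 10 genes were well above background on every array. Mmp12 rose by 3.82 and 4.85, more than the median of the list in each genotype, and the share of its rise that goes with macrophage content was not tested. Of 6 eosinophil genes, 2 rose and 1 fell in each genotype (median 0.88 in wild type and 1.19 in knockout). Prg2 rose by 3.03 and 3.83 and Ccr3 by 2.71 and 2.85, while Siglecf differed by -0.49 and -0.77. Ear1, Ear6 and Il5ra had positive differences that were not called.

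Endothelial markers fell beside Timp2 and Timp3 in wild type. Of 6 endothelial genes, 4 fell and 0 rose in wild type (median -0.61) and 1 fell in knockout (median -0.56), with Tie1, a receptor of vessel cells, at -0.59 in wild type. Their mean ran from 3.37 to 3.53 on wild-type saline arrays and from 2.64 to 3.09 on wild-type OVA arrays, and from 3.47 to 3.50 and from 2.65 to 3.07 in knockout. Of 8 fibroblast genes, 2 collagens rose and the growth factor receptor Pdgfra fell by 0.82 in wild type (median -0.40), and 2 rose and 0 fell in knockout (median -0.28). None of 5 smooth muscle genes passed in wild type and 1 did in knockout, the contractile actin Acta2 (0.47, adjusted p 0.0441). None of 7 lung epithelium genes passed in either genotype. Beside these counts, 18.8% of all genes passed in wild type (7.9% lower) and 8.23% in knockout (1.78% lower). The falls of Timp2 and Timp3, by 0.59 and 0.71, were of the size of the endothelial median, and whether they follow cell content was not tested.

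Some other genes of the family also passed. Of 17 further MMP and TIMP genes, 12 could be tested, and 3 rose and 0 fell in wild type (median 0.20). These were Mmp25, a membrane-anchored enzyme of leukocytes (2.51 ± 0.21, adjusted p 0.000618), Mmp17 (0.52, adjusted p 0.0103) and Mmp23 (0.34, adjusted p 0.041). In knockout Mmp25 rose by 2.22 (adjusted p 0.00267) and Mmp11, a stromal enzyme, fell by 0.58 (adjusted p 0.0496). The counts of 3 in 12 and 2 in 12 stand beside the 18.8% and 8.23% of all genes.

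Mmp13, Mmp12 and Mmp8 lie in a cluster of metalloproteinase genes on chromosome 9, within 286.4 kb in mm7. None of their tested neighbours in the cluster passed in either genotype. Mmp3, between Mmp12 and Mmp8, differed by 0.17 in wild type (adjusted p 0.52) and by 0.22 in knockout (adjusted p 0.484), and was well above background on all 11 arrays. Mmp10 gave 0.37 (adjusted p 0.694, well above background on 5 arrays) and Mmp7 0.23 (adjusted p 0.793, 8 arrays) in wild type. Mmp1a was well above background on 0 arrays and Mmp20 on 1, and neither was tested. Outside the metalloproteinase genes, Birc3, an inhibitor of cell death, rose by 0.77 in wild type (adjusted p 0.00609) and by 0.55 in knockout (adjusted p 0.0436).

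Promoter letters were read from RefSeq (GRCm38.p6), whose tables gave 8 windows for 7 of the 10 genes. The motif TGANTCA, the binding site of the AP-1 factors, reads the same on both strands. It was found in 2 of the 8 windows of 300 bases (250 before to 50 after the start), in Mmp13 and at one of 2 starts of Mmp12, against 7.81% of 32851 windows of all genes. Below are the 100 bases before each start, on the plus strand, with the motif in capitals.

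Mmp13, chr9:7272414-7272513: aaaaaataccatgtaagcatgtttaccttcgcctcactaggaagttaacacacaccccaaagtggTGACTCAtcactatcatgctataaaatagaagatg

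Mmp12, chr9:7347274-7347373: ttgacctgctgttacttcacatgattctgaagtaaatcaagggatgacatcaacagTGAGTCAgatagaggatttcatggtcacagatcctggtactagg

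The motif begins 35 bases before the start of Mmp13 and 44 bases before this start of Mmp12. The windows of Timp1, Timp2, Timp3, Mmp8, Mmp14 and the other Mmp12 start did not hold these letters. A match is a run of letters and not a measured binding site. No test of the motif counts was run, and a part of AP-1 in the rises was not tested.

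Of 13 genes known to induce metalloproteinases, 5 rose and 1 fell in wild type (median 0.63), where 18.8% of all genes passed. The cytokines Il6 (2.83 ± 0.64), Tnf (1.45 ± 0.26) and Osm (1.35 ± 0.31) rose, as did Junb (0.78 ± 0.13), a subunit of AP-1, and the myeloid factor Spi1, while Jun, another AP-1 subunit, fell by 0.72. In knockout 1 of 13 passed, Tnf at 1.25 (median 0.55), where 8.23% of all genes passed. No gene of this list passed between the genotypes after OVA or in the difference of OVA effects.

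Of 17 activators and other regulators, 4 rose and 1 fell in wild type (median 0.20), and 4 rose and 0 fell in knockout (median 0.38). The share of all genes that passed was 18.8% in wild type and 8.23% in knockout. Lcn2, which binds Mmp9 and shields it from breakdown, rose by 1.71 ± 0.18 in wild type and 1.79 ± 0.20 in knockout. Plau, the urokinase that makes plasmin, rose by 1.72 and 1.57. A2m, a broad proteinase trap, was not well above background after saline and rose at least 3.62-fold in wild type and at least 3.85-fold in knockout. Reck, a membrane-bound inhibitor of metalloproteinases, fell by 0.83 in wild type, in the direction of Timp2 and Timp3.

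Of 12 related ADAM and ADAMTS metalloproteinases, 3 rose in wild type and 2 in knockout, and 0 fell in either. Adamts4, an enzyme that cuts proteoglycans, rose by 2.10 and 2.35, and Adam8, a leukocyte surface enzyme, by 1.56 and 1.74. Adam10 rose by 0.59 in wild type. Of 13 matrix substrates, 4 rose and 2 fell in wild type (median -0.11) and 4 rose and 0 fell in knockout (median 0.19). Both sets of counts stand beside the 18.8% of all genes that passed in wild type and the 8.23% in knockout. The fibrillar collagen Col3a1 rose by 1.11 and 1.52 and the proteoglycan Vcan by 1.97 and 2.51, and the laminin chains Lamb2 and Lamc1 fell by 0.66 and 0.38 in wild type. Between genotypes, 0 genes of these 5 lists passed after saline, after OVA or in the difference of OVA effects.

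Some genes outside the family had patterns very close to those of Mmp12 and Timp1. Over the 11 arrays and 16699 genes, Igf1, a growth factor, was closest to Mmp12 (Pearson r 0.997), then Ezh2 and Atad2 (both 0.995). Closest to Timp1 were Tmem176a (0.998), Lap3 and Fignl1 (both 0.997). These points share the split between saline and OVA, so the values describe likeness over these arrays only.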

How the data were processed

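Per the file headers, each deposited scanner file holds, for every spot, a background-subtracted intensity made by Agilent Feature Extraction 9.5.1.1, and raw spot and local background intensity. Version 9.1 is named in the submitters' processing notes. The deposited value table of the authors holds log2 values, with array medians of 7.67; its normalization is not given in the sources used here. Each array has 43379 non-control spots for 41174 probes. Uneven and outlier spots were dropped and spots of one probe averaged.

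From these, log2 intensity minus the array's 75th percentile was computed. A probe was kept if 2 or more arrays had it well above background (32944 probes), and the brightest probe stood for a gene (21874 genes). Names came from RefSeq tables by accession (22944 probes), symbol (6664) or synonym (3108), or stayed as in the file (8458). Group means of all 11 arrays were estimated together in limma 3.58.1 (R 4.3.3), with two-sided moderated tests, Benjamini-Hochberg adjustment over all genes and a threshold of 0.05. Every adjusted p is from it unless stated. Correlations used 100000 permutations, two-sided. "At least" folds compare the mean of the brighter group with a mean over the dimmer arrays. Each dimmer array entered with its lowest signal well above background, or with the gene's own signal where that was higher.

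All members and their probes are named. The plan for the lists was to name up to 5 called genes each by smallest p in wild type. Not every such gene was named, and Thbs2 and Col1a1 are among those left out. Jun, Acta2 and the marker genes that were not called are named beyond that plan. Neighbours on chromosome 9, Mmp11 and the neutrophil relation were added after values were seen. The promoter motif was not among the planned results. The members and lists were chosen with earlier results of these data known. On simulated data of 21749 genes, 1.5-, 2- and 4-fold changes were planted in 67, 67 and 66 genes. Of these, 20.9%, 58.2% and 78.8% were recovered in the wild-type OVA comparison and 11.9%, 47.8% and 72.7% in the knockout one. Far fewer genes were changed than the 4108 called with OVA in wild type, and the adjustment depends on that share. These rates therefore do not measure recovery in the data. Alternatives were 2 normexp corrections, 2 scalings, 2 filters, mean of probes, a trended robust prior, only the groups compared, slide and replicate blocks, the fit without slide 1, the deposited value table and each array left out. The number of arrays limits the precision.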

Additional observations from a re-analysis of the deposited data

How the results depend on the processing

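No called difference of the 10 genes changed direction in any of the 13 alternatives or the 11 fits with 1 array left out, while several calls were lost or gained. For OVA in wild type, where 7 genes passed, the count was 0 with planned normexp and without slide 1, and from 2 to 7 with 1 array left out. For OVA in knockout, where 4 passed, it was 0 with planned normexp and without slide 1, 2 with only the groups compared or a slide block, 7 with probes well above background on all arrays or a trended robust prior, and 0 to 7 with 1 array left out. Without 1 knockout saline array, the remaining one was assumed to vary like the other groups. It was 0 in every fit for both genotype comparisons and the difference of effects, for which only the groups compared is the same fit. Planned normexp is pulled by spots of bright local background (7 spots of wild-type saline 2, 5 of wild-type OVA 1), and it moved the median of all genes by over 0.1 between genotypes (-0.22 after saline, -0.23 after OVA). Normexp without those spots gave a median of 0.13 for OVA in wild type.

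With the replicate number as a block, the knockout count was 2 (Timp1 and Mmp12), and Mmp19 lost its call in wild type (adjusted p 0.0593). Same-numbered arrays did not deviate together (correlation at most 0.0225), so no pairing by number was seen. The check is weak, because deviations were taken from means of few arrays and most same-numbered arrays sat on different slides. It cannot exclude a pairing.

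Over all genes, OVA in wild type gave 4108 calls, 2717 with a slide block, 2039 with only the groups compared, 27 without slide 1 and 0 with planned normexp. With 1 array left out it gave from 1052 (wild-type OVA 3) to 6264 (wild-type OVA 1), and between these 1083 (wild-type OVA 2), 1143 (wild-type saline 2), 1532 (wild-type saline 1) and 1974 (wild-type saline 3). The deposited table gave 2418 higher and 2678 lower against 2380 and 1728. OVA in knockout gave 1801 calls (1411 higher, 390 lower), 845 with a slide block, 716 with a replicate block, 444 with only the groups compared, 1185 with no filter, 2771 with a trended robust prior, 2862 with the deposited table (1641 higher, 1221 lower), 13 without slide 1 and 0 with planned normexp. With 1 array left out it gave from 83 (knockout saline 1) to 3307 (knockout OVA 2), and was also over 1.5 times away without knockout saline 2 (439), knockout OVA 3 (552), knockout OVA 1 (716), wild-type saline 2 (1019), wild-type OVA 3 (1107), wild-type saline 3 (1122) and wild-type OVA 1 (3084).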
